A study of Homo sapiens with 33 samples.

Results

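The plasminogen activation system was followed in RNA-seq libraries of 6 established cell lines through 7 genes, taken by symbol from the 58302 genes of the deposited matrix. They are PLAT and PLAU, which encode the activators tPA and uPA, PLAUR, which encodes the uPA receptor, SERPINE2 and SERPINB2, which encode inhibitors of the activators, and ANXA2 and S100A10, which encode both partners of the annexin A2 complex. Levels are in CP20M, counts scaled to 20000000 reads per library. All 7 genes reached 100 CP20M in at least 1 library, the filter that 17803 genes passed. H2052, H2452, H28 and MSTO-211H are mesothelioma lines sensitive to palbociclib, an inhibitor of the cell cycle kinases CDK4 and CDK6. Resistant to the drug are MPP89, a mesothelioma line that carries an RB1 mutation, and MeT-5A, which consists of SV40-immortalized mesothelial cells. All were grown in RPMI-1640 with serum and received 1 µM palbociclib or 0.1% DMSO for 9 or 10 days, in 2 pairs of cultures for H2052 and MPP89, 3 pairs for H2452, H28 and MSTO-211H and 1 pair for MeT-5A. In the 10-day experiment of each sensitive line, 1 more culture had palbociclib removed for 48 h (washout), and 1 MeT-5A library was untreated, which made 33 libraries. The resistant class thus holds 1 tumour line and 1 immortalized line, and a class is known only from these lines.

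Plasminogen is a zymogen of the blood that tPA and uPA cut into plasmin, a protease that dissolves fibrin and attacks the extracellular matrix. uPA acts mainly when bound to its receptor on the cell surface, whereas the annexin A2 complex gathers tPA and plasminogen there, and serpins trap the activators in inactive complexes. Mesothelial cells release activators and inhibitors, and their balance decides whether fibrin persists on the pleura.

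The library totals lay between 20007662 and 20021400 CP20M and do not show depth, but the whole numbers that low values skipped gave it for 23 libraries, from 12770000 to 19800000 reads. In these, 1 read was worth at most 1.57 CP20M and 3 reads at most 4.70 CP20M. Of 8 mesothelial markers, 6 had a mean of at least 100 CP20M over the DMSO libraries of H2052, 7 in H2452, 5 in MPP89, 4 in MSTO-211H and MeT-5A, and 3 in H28. In H28, over all its libraries, MSLN (1 to 15 CP20M), CALB2 (0 to 2), PDPN (0 to 4) and BNC1 (0 to 9) were at or near 0. UPK3B (61 to 233), WT1 (107 to 360), KRT18 (1497 to 2219) and KRT19 (4295 to 11798) were present there. Other lines had gaps too, such as KRT19 in MSTO-211H (0 to 10) and WT1 in MeT-5A (0 to 2). Of 4 leukocyte markers, CD3E was at 0 in every library and PTPRC at most at 42 CP20M, whereas CD68 had 123 to 1844 CP20M over all lines and CD14 108 to 1130 in H2452, MPP89 and MeT-5A and at most 16 in the others. The part of these markers in the results was not tested. Proliferation genes moved with palbociclib in the sensitive lines (MKI67 log2 change -3.10, SE 0.35), and in bulk RNA fewer cells of a kind and less RNA per cell cannot be told apart. By medians over such genes, H28 libraries also held up to 0.385% of the level of genes that H2052 expressed and H28 otherwise lacked, and H2452 libraries up to 0.304%. The H28 library with that share, control 3, held traces of the other lines too. They were 0.267% for H2452, 0.263% for MSTO-211H, 0.19% for MPP89 and 0.183% for MeT-5A. Such traces are given beside the low PLAT and SERPINB2 values they touch.

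With DMSO alone, the lines differed in every one of the 7 genes (limma F test over 6 lines), as they did in 95.6% of all genes tested. For ANXA2 this did not hold without control 2 of H2052 (adjusted p = 0.0819). Compared per kb of annotated exon, S100A10 and ANXA2 were the most evenly expressed members. The mean S100A10 level lay between 973 CP20M per kb in MSTO-211H and 6078 in MeT-5A, and that of ANXA2 between 2041 in MeT-5A and 3744 in H2052. The activators and SERPINB2 spanned far wider ranges. PLAT had 2769 ± 457 CP20M per kb in H2052 (SD, n = 2) and 7.21 ± 5.94 in H28 (SD, n = 3). SERPINB2 had 8715 ± 480 CP20M per kb in MSTO-211H (SD, n = 3) and was listed at 0 in the DMSO library of MeT-5A. In MSTO-211H it was the highest member per kb, an order that depends on the exon length used. That length merges all annotated exons, 2741 bases for SERPINB2 and 11574 for ANXA2. In CP20M the mean of ANXA2 was higher in that line, 29230 against 23890.

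**Figure D1:**
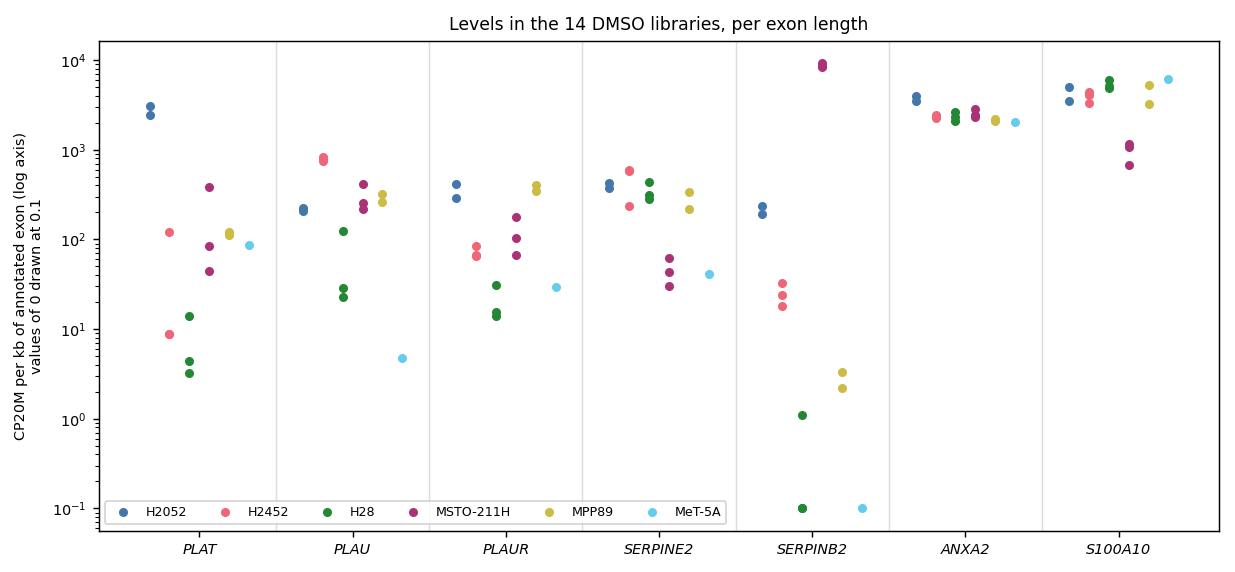
CP20M per kb of annotated exon (log axis, values of 0 drawn at 0.1) of the 7 genes in the 14 DMSO libraries, 1 point per library, coloured by line. ANXA2 stays within a narrow band in all 6 lines and S100A10 is lower in MSTO-211H, whereas PLAT is high in H2052 and SERPINB2 in MSTO-211H.

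The order of the lines was different for each gene, and many neighbours in it did not differ beyond their spread. For PLAT, H2052 stood above MPP89 by 4.56 on the log2(CP20M + 10) scale (limma, adjusted p = 0.00524), and none of the following steps, from MPP89 through MSTO-211H, MeT-5A and H2452 to H28, passed (lowest adjusted p = 0.136). For PLAU, H2452 was highest and stood 1.45 above MPP89 (adjusted p = 0.0274). MPP89, MSTO-211H and H2052 followed without a step that passed, then H28 (adjusted p = 0.00246). MeT-5A came last, 2.55 below H28 on the log2 scale, by its 1 DMSO library of 14 CP20M. Its untreated library had 85 CP20M and the H28 controls 67, 85 and 368, so this last place is uncertain. PLAUR was highest in MPP89 and H2052, at 1664 and 1580 CP20M, with 1.68 on the log2 scale from H2052 down to MSTO-211H (adjusted p = 0.00229). For SERPINE2 the 4 lines H2452, H2052, H28 and MPP89 did not differ from their neighbours, and MSTO-211H lay 2.62 below MPP89 (adjusted p = 0.000114). SERPINB2 gave a step at each of the first 4 places, the largest being 5.32 between MSTO-211H and H2052 (adjusted p = 3.28e-09). The last of these, from MPP89 (9 and 6 CP20M) to H28 (0, 3 and 0), compares values of a few reads and is not read as an order. S100A10 was lowest in MSTO-211H, 2.03 below H2452 (adjusted p = 9.25e-06), and ANXA2 was highest in H2052, 0.57 above MSTO-211H (adjusted p = 0.00821). No member separated the resistant from the sensitive lines (0 of 7, smallest adjusted p = 0.678, with 0.0899% of all genes called in that comparison and 1532 genes at an unadjusted p under 0.05).

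Palbociclib was compared with DMSO to see how the system responds to prolonged CDK4/6 inhibition. Over the 11 pairs of the sensitive lines, 3 of the 7 members were called, all higher: PLAT, SERPINE2 and SERPINB2. In that comparison 15% of all genes were called and 5.58% were called higher, with a fold change above 1.5 and a Benjamini-Hochberg adjusted p under 0.05. The median log2 change of the members was 0.20, against -0.11 over all genes. Calls within single lines were few. In H2052, where 17.7% of all genes were called, 1 member was called higher (against 4.67% of all genes) and 1 lower (against 13%). In H2452, with 16.8% called, 2 members were higher (6.04%) and 1 was lower (10.8%). H28, with 13.2% called, had 1 member higher (5.89%) and 0 lower (7.34%), and MSTO-211H, with 13.8% called, had 2 higher (5.9%) and 0 lower (7.94%). These backgrounds depend on the scaling. The share of calls that were higher was 37.3% over the 11 pairs, 65.7% with median-of-ratios and 62.9% with upper-quartile scaling. In the same order it was 26.5%, 70.8% and 72.6% for H2052, 35.9%, 61.4% and 60.3% for H2452, 44.5%, 61.6% and 49.7% for H28, and 42.7%, 67.5% and 65% for MSTO-211H.

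**Figure D2:**
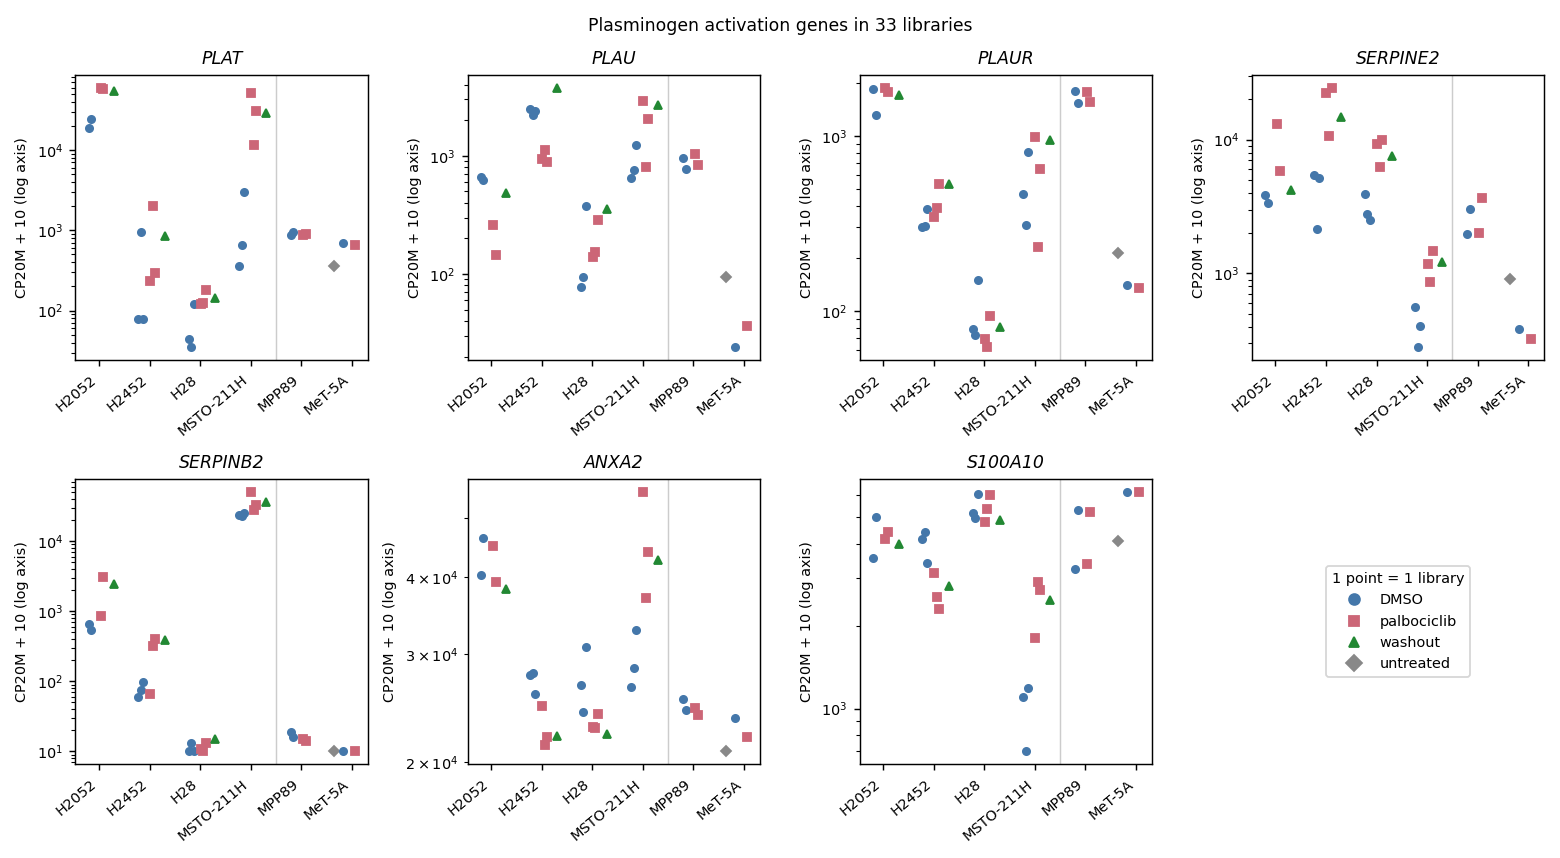
CP20M + 10 (log axis) of each gene by cell line, 1 point per library, with DMSO as circles, palbociclib as squares, washout as triangles and untreated MeT-5A as a diamond. Sensitive lines are left of the grey line and resistant lines right of it. PLAT and SERPINE2 are higher with palbociclib in the sensitive lines, and PLAU is lower in H2052 and H2452.

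PLAT (ENSG00000104368, chromosome 8 from 42174718 to 42207709 of GRCh38) had the largest mean change of the members over the 11 pairs, which MSTO-211H carried. In MSTO-211H it went from 345, 649 and 2946 CP20M with DMSO to 51075, 11643 and 30173 with palbociclib. Every treated library lay above every control library there, and the mean was 23.6 times higher. In H2052, where PLAT was already abundant, it went from 19000 and 24024 CP20M to 59972 and 56904, again without overlap. H2452 had 69, 939 and 68 CP20M with DMSO and 225, 1999 and 282 with palbociclib. These groups overlapped because both libraries of experiment 2 were high, but each pair rose. H28 had the lowest levels, 34, 25 and 109 CP20M against 110, 115 and 169, and its groups were 1 CP20M apart. The log2 change reached 4.89 for MSTO-211H (SE 0.83, limma adjusted p = 0.0399). It was 1.45 for H2052 (SE 0.20, adjusted p = 0.0412) and 1.52 for H2452 (SE 0.19, adjusted p = 0.0173). In H28 it was 1.29 (SE 0.28) and missed the threshold (adjusted p = 0.0512). Over the 11 pairs it was 2.36 (SE 0.49, adjusted p = 0.00149), and PLAT was higher in 11 of 11 pairs.

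The size of the PLAT response differed among the 4 sensitive lines (F test, adjusted p = 0.00914, one of 37.1% of genes with such a difference), and without the replicate block this did not pass (adjusted p = 0.143). MSTO-211H set the top of the range: without that line the mean change was 1.42 (adjusted p = 5.25e-05). At the shares of H2052 genes found in H28, the PLAT of H2052 would amount to 0 CP20M in controls 1 and 2, 164 in control 3, which had 109, and 12.5, 15.8 and 68.7 in the treated libraries. The estimate is rough, since that control would by the same reckoning hold 82.5 CP20M of SERPINB2 from MSTO-211H and had 0. In H2452 the estimate ran from 0 to 130 CP20M of PLAT. The part of such traces in the PLAT values was not tested. The call over the sensitive lines was kept without H28 (log2 change 2.77, adjusted p = 0.00533). MPP89 had 865 and 932 CP20M with DMSO and 873 and 890 with palbociclib, and MeT-5A 351 untreated, 676 with DMSO and 644 with palbociclib. With pairs as units, the difference in response between the sensitive and resistant lines was 2.40 (95% interval 0.32 to 4.49) and did not pass (adjusted p = 0.128). It passed without MSTO-211H pair 1 (1.92, adjusted p = 0.0386).

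PLAU (ENSG00000122861, chromosome 10 from 73909177 to 73917496) fell in 2 of the 4 sensitive lines. In H2452 it fell from 2470, 2204 and 2373 CP20M to 923, 1113 and 876, and in H2052 from 656 and 614 to 249 and 135. Neither line had an overlap between groups, and the log2 changes were -1.27 (SE 0.11, adjusted p = 0.0138) and -1.73 (SE 0.24, adjusted p = 0.0408). In MSTO-211H, by contrast, controls had 644, 743 and 1231 CP20M and treated libraries 2926, 788 and 2024, a log2 difference of 0.99 in overlapping groups that did not pass (adjusted p = 0.182). H28 had 67, 85 and 368 CP20M against 129, 143 and 274 (0.38, adjusted p = 0.400). Both values depended on single pairs, with ranges of 0.40 to 1.44 in MSTO-211H and 0.14 to 0.77 in H28 when any 1 pair was left out. The responses of the 4 lines differed (F test, adjusted p = 0.00524), and their mean, -0.29 (95% interval -1.02 to 0.44), stands for none of them. In these 2 lines, H2052 and H2452, PLAT was called higher while PLAU was called lower. PLAU in MPP89 had 953 and 762 CP20M with DMSO and 1021 and 826 with palbociclib, and in MeT-5A 85 untreated, 14 with DMSO and 26 with palbociclib.

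C10orf55, a gene on the opposite strand, shares 915 exon bases with PLAU in the annotation. In the 33 libraries its level was between 32.2% and 50% of that of PLAU (median 39.7%), and Pearson's r of both log2 levels was 0.997. It was also called lower in H2052 (-1.77) and H2452 (-1.24). The libraries were made with a directional kit, but the strand setting of the counting is not given in the sources used here, so reads of the 2 genes cannot be told apart and the PLAU level is uncertain.

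**Figure D3:**
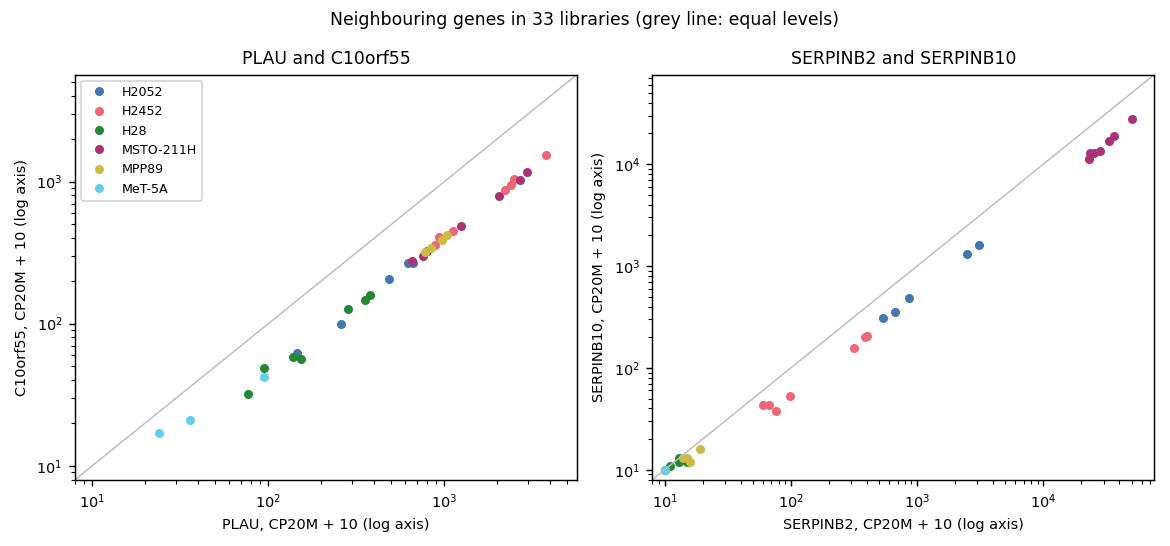
Left, C10orf55 against PLAU, and right, SERPINB10 against SERPINB2, as CP20M + 10 on log axes in the 33 libraries, coloured by line, with a grey line at equal levels. In both panels the points above the lowest levels run parallel to that line, with the neighbour at a near fixed share of the member. At the lowest levels the added 10 draws the points towards the line.

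PLAUR (ENSG00000011422, chromosome 19 from 43646095 to 43670547), the receptor that holds uPA at the membrane, was called in no line. Over the 11 controls of the sensitive lines its lowest, median and highest levels were 63, 299 and 1857 CP20M, and over the 11 treated libraries 52, 379 and 1884. The groups overlapped in every sensitive line. The mean log2 change was 0.06 (95% interval -0.24 to 0.36, adjusted p = 0.730), with 6 pairs higher and 5 lower. The line values ran from -0.37 in H28 to 0.34 in H2452, where all 3 pairs were higher but the change was under the fold threshold (adjusted p = 0.0638). MPP89 had 1794 and 1535 CP20M with DMSO and 1767 and 1561 with palbociclib.

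SERPINE2 (ENSG00000135919, chromosome 2 from 223975045 to 224039318), which encodes protease nexin-1, an inhibitor of thrombin, uPA and tPA, rose in 11 of 11 pairs. H2452 went from 5381, 2120 and 5132 CP20M to 22365, 10694 and 24491. H28 went from 3883, 2770 and 2516 CP20M to 9255, 6265 and 9949, and MSTO-211H, at a far lower level, from 549, 271 and 391 to 1168, 845 and 1464. H2052 had 3832 and 3335 CP20M with DMSO and 13020 and 5787 with palbociclib. In none of the 4 lines did the groups overlap. The largest log2 change was that of H2452, 2.21 (SE 0.08, adjusted p = 0.0123). MSTO-211H followed with 1.52 (SE 0.19, adjusted p = 0.0354) and H28 with 1.47 (SE 0.19, adjusted p = 0.0285), whereas the 1.28 of H2052 (SE 0.28) missed the threshold (adjusted p = 0.0611). Over the 11 pairs the change was 1.65 (SE 0.14, adjusted p = 1.92e-06). A difference among the 4 lines was not shown (F test, adjusted p = 0.0868), although the test passed without H2052 pair 1 (0.0354) or H28 pair 3 (0.0464). In H2452 the log2 change of SERPINE2 was larger than that of PLAT (1.52). In H28 the mean change of SERPINE2 lay within the range of the PLAT pairs (0.59 to 1.84, mean 1.29). PLAT was low in H28, and the log2 scale used understates changes of low genes, so no order is read there. The difference between the changes of these genes was not tested in either line.

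In the resistant lines SERPINE2 stayed close to its controls, with 1952 and 3043 CP20M against 2004 and 3634 in MPP89, and 891 untreated, 372 with DMSO and 316 with palbociclib in MeT-5A. It was the only member whose response differed between the classes (1.63, 95% interval 1.04 to 2.22, adjusted p = 0.00370), in a test that called 9.37% of all genes, 1.56% with a higher and 7.81% with a lower response in the sensitive lines. That test took pairs as units, which come from 4 sensitive and 2 resistant lines, so it does not speak for lines beyond these. No member was called over the 3 resistant pairs, nor was any other gene (0% of 17803, with 1258 at an unadjusted p under 0.05).

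SERPINB2 (ENSG00000197632, chromosome 18 from 63871692 to 63903888), which encodes PAI-2, an inhibitor of uPA and tPA, was abundant in 1 line. MSTO-211H had 23370, 22908 and 25382 CP20M with DMSO and 50526, 27975 and 32808 with palbociclib. H2052 went from 654 and 531 CP20M to 855 and 3057, and H2452 from 50, 66 and 89 to 57, 305 and 387. The groups were apart in MSTO-211H and H2052 and overlapped in H2452. H28 had 0 to 3 CP20M in all its DMSO and palbociclib libraries, at or under the 3-read level, MPP89 had 4 to 9, and MeT-5A was listed at 0. No line was called on its own (H2052 1.44, H2452 1.40, MSTO-211H 0.59, lowest adjusted p = 0.0877). Over the 11 pairs the log2 change was 0.82 (SE 0.25, adjusted p = 0.0154), with 10 pairs higher, 2 of them H28 pairs at or under the 3-read level. Without H28 it was 1.11 (adjusted p = 0.0103). That call did not hold without H2452 (0.60, adjusted p = 0.0869), over line means (0.87, adjusted p = 0.0615), or over the 9-day pairs (0.54, adjusted p = 0.140) and the 10-day pairs (1.31, adjusted p = 0.0654) alone. Treated H2452 library 2 held 0.420% of the level of 6 genes of MSTO-211H, at which the SERPINB2 of that line would amount to 132 of its 305 CP20M, and the part of this trace in the call was not tested.

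SERPINB10, which starts 4069 bases beyond the end of SERPINB2 on the same strand, followed it in the 3 lines with at least 50 CP20M of SERPINB2, H2052, H2452 and MSTO-211H. Its level was 42.4% to 66% of that of SERPINB2 (median 51.7%) in their 19 libraries, and in the other lines neither gene exceeded 9 CP20M. The annotation used here lists a readthrough gene that shares 547 exon bases with SERPINB2 and runs into this neighbour, and how such reads were divided between them was not tested.

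The promoter windows of these inhibitors are shown because both genes were called higher and because their letters differ. They are the 250 bases before a start listed in RefSeq (GRCh38.p14), and such windows were read for 6 members. PLAT was left out of this search. Capitals mark CCAAT or its reverse complement ATTGG in the first sequence (minus strand, chr2:224031479-224031728) and the AP-1 motif TGANTCA in the second (plus strand, chr18:63887455-63887704):
SERPINE2: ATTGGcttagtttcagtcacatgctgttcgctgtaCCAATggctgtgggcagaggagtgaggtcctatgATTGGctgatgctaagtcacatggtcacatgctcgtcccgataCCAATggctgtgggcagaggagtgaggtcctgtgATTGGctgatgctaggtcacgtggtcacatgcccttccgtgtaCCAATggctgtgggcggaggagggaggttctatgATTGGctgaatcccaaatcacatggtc
SERPINB2: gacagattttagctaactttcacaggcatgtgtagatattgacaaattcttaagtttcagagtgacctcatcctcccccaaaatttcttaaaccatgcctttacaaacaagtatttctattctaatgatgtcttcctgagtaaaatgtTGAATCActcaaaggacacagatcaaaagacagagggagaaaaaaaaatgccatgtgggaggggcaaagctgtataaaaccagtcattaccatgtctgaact

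The SERPINE2 window holds 7 CCAAT letters on either strand within a repeated block. Of 35116 RefSeq promoter windows, 32.0% hold at least 1 and 0.0199% hold at least 7. RefSeq lists a second start for SERPINE2, whose window (chr2:224038641-224038890) held none. That window lies nearer the upstream end of the annotated gene, at 224039318 on the minus strand, whereas the printed window lies further inside the gene. The printed window was taken because it overlaps no annotated exon, unlike the other. Which start was used in these lines was not tested. The SERPINB2 window holds 1 AP-1 motif, first base at -102 from the start, as do those of PLAUR (-186) and ANXA2 (-127). These are the 3 windows with a match among the 8 member windows read, and 6.57% of all windows hold one. The windows of S100A10, PLAU and SERPINE2 hold none, and those of PLAUR and ANXA2 overlap annotated exons. These motifs were searched on both strands after the sequences were seen, do not overlap each other, and describe letters only.

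ANXA2 (ENSG00000182718, chromosome 15 from 60347134 to 60402883) and S100A10 (ENSG00000197747, chromosome 1 from 151982915 to 151993859) encode the parts of the complex that gathers tPA and plasminogen on the cell surface. Neither was called over the 11 pairs, with log2 changes of 0.03 for ANXA2 (95% interval -0.24 to 0.30) and 0.20 for S100A10 (-0.26 to 0.67). Behind these means lay lines that moved apart. In MSTO-211H, S100A10 had 1093, 687 and 1175 CP20M with DMSO and 1796, 2892 and 2688 with palbociclib, and ANXA2 26498, 28418 and 32768 against 55080, 37025 and 44040. Both genes were higher in all 3 pairs without overlap, by 1.32 (adjusted p = 0.0541) and 0.62 (adjusted p = 0.128) on the log2 scale, and neither passed. S100A10 did pass with median-of-ratios (adjusted p = 0.0426) and upper-quartile scaling (0.0420). In H2452 they were lower in all 3 pairs, S100A10 with 4139, 4398 and 3378 CP20M against 3121, 2550 and 2307, and ANXA2 with 27719, 27930 and 25862 against 24668, 21328 and 22011. There the S100A10 change of -0.58 had an adjusted p of 0.0229 but was smaller than 1.5-fold, and that of ANXA2 was -0.26 (adjusted p = 0.102). The responses differed among the 4 lines for S100A10 (F test, adjusted p = 0.00255) and for ANXA2 (adjusted p = 0.0183). In MPP89 and MeT-5A the pairs of both genes differed by at most 0.11 on the log2 scale.

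ANXA2 has processed copies elsewhere in the genome. The summed level of ANXA2P1, ANXA2P2 and ANXA2P3 was 0.163% to 0.432% of that of ANXA2.

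**Figure D4:**
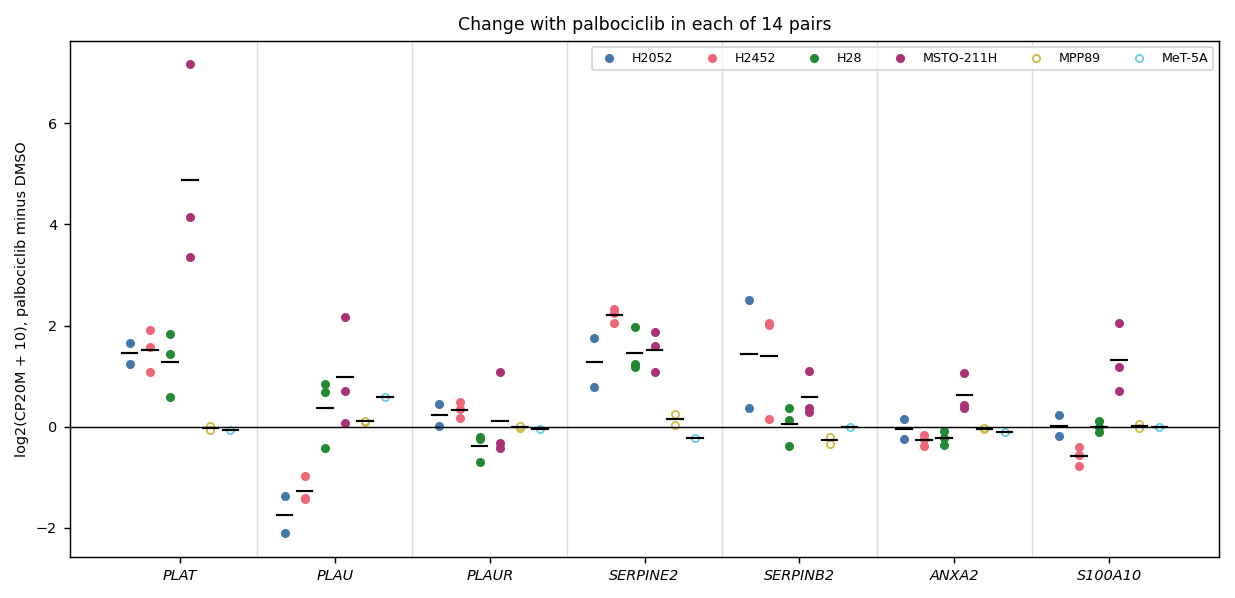
Difference in log2(CP20M + 10), palbociclib minus DMSO, for each of the 14 pairs (points) and the mean of each line (black bars), by gene. Sensitive lines are filled and resistant lines open. All sensitive pairs lie above 0 for PLAT and SERPINE2, and PLAU lies below 0 in H2052 and H2452 and above 0 in MSTO-211H.

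Some libraries weighed on several members at once. Treated MSTO-211H library 1 had the highest palbociclib value of its line for PLAT, PLAU, PLAUR, SERPINB2 and ANXA2, and the lowest for S100A10. Calls within a line rested on few pairs. Leaving out any 1 pair ended the SERPINE2 call in H28 (adjusted p 0.0566 to 0.218) and the PLAT and SERPINE2 calls in MSTO-211H (0.0838 to 0.242). The log2 changes in these fits were 1.21 to 1.62 for SERPINE2 in H28. In MSTO-211H they were 3.75 to 5.66 for PLAT and 1.34 to 1.74 for SERPINE2. Each such fit held 2 pairs, and the share of all genes it called was not recorded, so the losses do not single out the members. In H2452 the 3 calls were lost without pair 1 or pair 3 and kept without pair 2. Those in H2052, with 2 pairs, were just under the threshold and were lost with a pseudocount of 1 (adjusted p = 0.0515 for PLAT and PLAU).

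The washout libraries were compared with both other conditions of the same 4 experiments, to see which changes persisted 48 h after removal of the drug. No member was called between washout and palbociclib (0 of 7, smallest adjusted p = 0.236), where 1.4% of all genes were called, all of them higher, and 2322 genes had an unadjusted p under 0.05. Against DMSO, 3 of 7 members were called, all higher, in a test that called 5.76% of all genes, 2.81% higher and 2.95% lower. The share of calls that were higher was 48.7% there, 72.3% with median-of-ratios and 56.1% with upper-quartile scaling. The 2 comparisons share the washout libraries, so their values are given side by side.

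PLAT after washout had 53503 CP20M for H2052, 829 for H2452, 132 for H28 and 29237 for MSTO-211H. It was 2.04 above DMSO (log2, adjusted p = 0.0315) and 0.26 above palbociclib (95% interval -0.85 to 1.37). Only in H2452 was it well above its palbociclib library of 282 CP20M. That washout library held 0.304% of the level of H2052 genes, at which the PLAT of H2052 would amount to 130 of the 829 CP20M. SERPINE2 had 4163, 14752, 7498 and 1212 CP20M in the same order of lines. It was 1.25 above DMSO (adjusted p = 0.0104) and below palbociclib in 4 of 4 lines, by a mean that did not pass (-0.47, 95% interval -0.96 to 0.02). SERPINB2 was 1.32 above DMSO (adjusted p = 0.0370) and level with palbociclib (0.00, 95% interval -0.75 to 0.76), with 2464, 378, 5 and 36377 CP20M. Proliferation genes had in the meantime risen (MKI67 2.99 above palbociclib, adjusted p = 0.0348).

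PLAU was higher after washout than with palbociclib in 4 of 4 lines. It went from 135 to 476 CP20M in H2052 and from 876 to 3775 in H2452, past the control value of 2373 in the latter, and from 274 to 342 in H28 and 2024 to 2686 in MSTO-211H. The mean difference of 1.14 (95% interval 0.26 to 2.01) did not pass over all genes (adjusted p = 0.236), and PLAU was 0.33 above DMSO (adjusted p = 0.613). PLAUR, ANXA2 and S100A10 differed from palbociclib by 0.08, -0.05 and -0.07. With 4 lines and 1 library each, leaving out any line reduced the calls against DMSO to 0 or 1 of 7. The share of all genes called in those fits was not recorded.

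**Figure D5:**
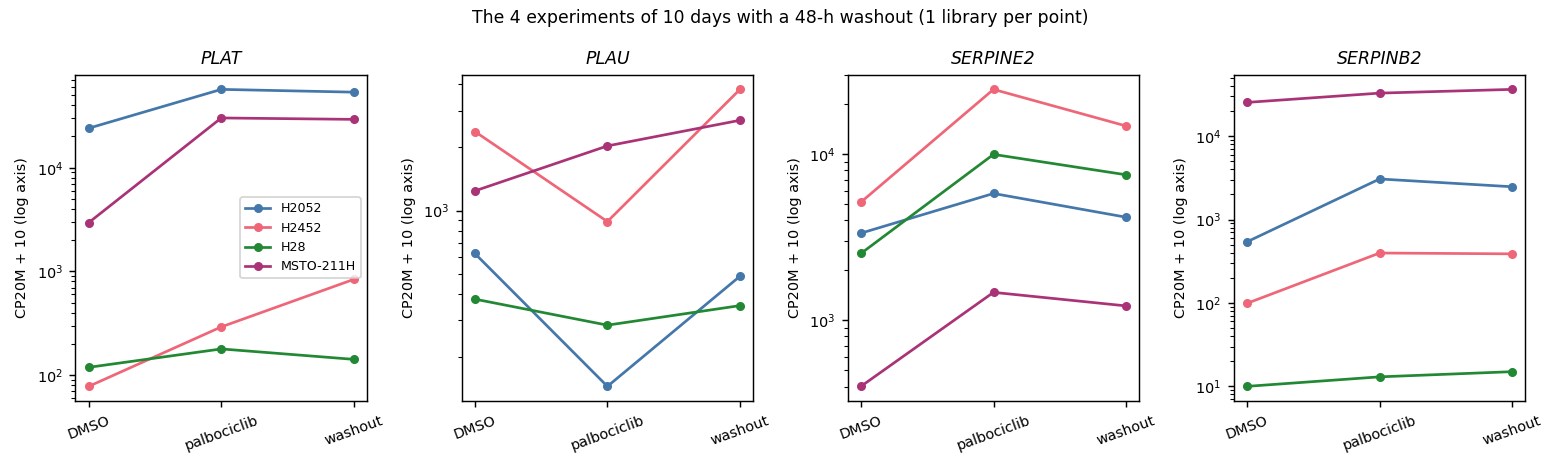
CP20M + 10 (log axis) of PLAT, PLAU, SERPINE2 and SERPINB2 with DMSO, palbociclib and 48-h washout in the 10-day experiment of each sensitive line, 1 library per point. PLAU turns up again after washout in H2052 and H2452, while SERPINE2 comes down part of the way in all 4 lines.

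The other genes of the pathway were read as a list of 30, of which 25 passed the filter. PLG, which encodes plasminogen itself, was among the 5 that did not. Over the 11 sensitive pairs 5 of the 25 were called higher and 1 lower, against 5.58% and 9.37% of all genes, and their median log2 change was 0.24. LRP1, the receptor that clears activator and serpin complexes, rose by 1.27 (SE 0.15, adjusted p = 2.78e-05) in 11 of 11 pairs, from a median of 6946 to 15247 CP20M. Of the partners of the uPA receptor, the integrin genes ITGA5 and ITGB3 rose by 0.64 (adjusted p = 0.00133) and 1.00 (adjusted p = 0.00915), with ITGB3 higher in 8 of 11 pairs. SERPING1, the C1 inhibitor, rose by 2.18 (adjusted p = 0.00184), although its median was only 9 CP20M in the controls and 168 with palbociclib. SERPINI1, which encodes neuroserpin, an inhibitor of tPA, rose by 1.10 (adjusted p = 0.000139) between medians of 15 and 40 CP20M. HMGB1, a nuclear protein that also binds plasminogen, fell by 1.29 (adjusted p = 4.26e-07) in 11 of 11 pairs. By line, 6 of the list were higher and 1 lower for H2052, 8 and 4 for H2452, 2 and 2 for H28, and 4 and 2 for MSTO-211H. Of all genes, 4.67% were called higher and 13% lower for H2052, 6.04% and 10.8% for H2452, 5.89% and 7.34% for H28, and 5.9% and 7.94% for MSTO-211H. None was called in the resistant lines.

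Across the 33 libraries, the gene closest in pattern to PLAT was SMURF2 (Pearson's r = 0.952 of log2 levels), followed by SERPINB7 (0.923) and AL357060.2 (0.916). SERPINE2 was nearest to MAF (0.895), MAP1B (0.880) and LPCAT1 (0.857). After C10orf55, PLAU was nearest to COMMD8 (0.897) and DAGLB (0.856), and after SERPINB10, SERPINB2 was nearest to PTPRN2 (0.974) and LINC01204 (0.962). ANXA2 was nearest to BCL2A1 (0.898), KRTAP2-3 (0.888) and GALNT5 (0.880), and S100A10 to PMEPA1 (0.859), CDC42BPA (0.856) and PPP6R2 (0.835). The libraries of a line share its identity, so these values mostly compare 6 lines and are a description.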

How the data were processed

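Total RNA of the 6 lines was made into directional libraries and sequenced in pairs. The authors mapped reads to GRCh38 (STAR 2.5.3, after Trimmomatic 0.36, per the submitters' processing notes), counted them per gene with HTSeq 0.9.1 and scaled each library to 20000000 reads. The deposited values are a normalized score, CP20M rounded up to whole numbers, so no count test was used. The 100 CP20M filter of the study's methods was applied here.

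Tests used limma 3.58.1 (trend, R 4.3.3) on log2(CP20M + 10), a scale that understates changes of low genes. The experiment was a block, as in the study's methods. Deviations of paired libraries from the mean of their line and treatment correlated in all 13 pairs that could be checked (r 0.181 to 0.783 across genes). Such deviations cancel out within a line, so the values of a line are not independent. In H2052 (0.337) and MPP89 (0.783) both pairs give the same value by construction. Washout fits used the line as block. Adjusted p-values (Benjamini-Hochberg) are over 17803 genes, and a call needed 1.5-fold and 0.05. The study calls the pairs independent experiments on a line, so p-values within a line measure the spread between experiments, not between donors. Those of mean changes over several lines and of the difference between classes take pairs as units and mix in differences between lines. Washout fits, with 1 library per line and condition, measure the spread between lines. The comparison of resistant with sensitive controls measures the spread between line means. No 2 libraries were counted as 1.

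Named genes are the 7 members, overlapping and copied genes, and a pathway list of which at most 10 called over the sensitive pairs are given, and the 3 genes nearest each member (not reported here for PLAUR). Members and lists were chosen with earlier results of these data known. Of the list, 1 gene is not reported here, so counts over the list are not complete. Positions are from GENCODE 44 and promoters from RefSeq. Functions were tested on simulated data. Alternatives were no block, other pseudocounts (1 and 50), the filter dropped or applied per comparison, scaling by median of ratios or upper quartile, no trend, 1 fit of all lines, line means, 9- or 10-day pairs, an added untreated library, and leaving out pairs, libraries or lines. Python 3.11.15 and matplotlib 3.10.9 drew the figures.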

Additional observations from a re-analysis of the deposited data

Results flagged for a closer look

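The SERPINE2 response differed between the sensitive and resistant lines (adjusted p = 0.00370), in a test with pairs, not lines, as units. Responses differed among the 4 sensitive lines for PLAT (adjusted p = 0.00914), which rose most in MSTO-211H, and for PLAU (0.00524), which fell in H2052 and H2452 and was not called in H28 and MSTO-211H. They also differed for ANXA2 (0.0183) and S100A10 (0.00255), both higher in all MSTO-211H pairs and lower in all H2452 pairs. All are limma tests of the difference itself, over all genes.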

How the results depend on the processing

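Over the 11 sensitive pairs the calls of PLAT and SERPINE2 and the direction of SERPINB2 were the same under every alternative run. In H2052 the number of members called went from 2 to 0 with a pseudocount of 1, no filter or no trend, to 1 with median-of-ratios scaling and to 4 with the filter within the fit, and no pair could be left out there. In H28 it went from 1 to 2 with a pseudocount of 50, both other scalings or the filter within the fit. In MSTO-211H it went from 2 to 1 without a filter, to 4 with the filter within the fit and to 5 in 1 fit of all lines. Leaving out 1 pair gave 0 to 3 in H2452, 0 in H28 and MSTO-211H, and 1 to 2 for the difference between classes. The share of all genes called without a pair was not recorded, so these counts do not single out the members. Washout against DMSO went from 3 to 0 without the replicate block and to 1 without a filter, and to 0 to 1 without a line. Without the replicate block PLAT also lost its call in H2452 (adjusted p = 0.450), and S100A10 gained one in MSTO-211H (0.0350). PLAT passed in H28 with a pseudocount of 50 (0.0360), both scalings (0.0354 and 0.0383) and the filter within the fit (0.0127). SERPINE2 passed in H2052 with a pseudocount of 50 (0.0488), upper-quartile scaling (0.0419), the filter within the fit (0.000179) and 1 fit of all lines (0.00122), where PLAT was lost (0.0745). Among the sensitive lines, SERPINB2 passed the F test without H2052 pair 1 (0.0476) or H2452 pair 1 (0.0483), and PLAUR without MSTO-211H pair 1 (0.0221). The causes were not tested.

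Median-of-ratios and upper-quartile scaling moved the median log2 change of all genes over the 11 pairs from -0.11 to 0.06 and 0.04. In H2052 it moved from -0.24 to 0.03 and 0.07.

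Signs turned only for members that were not called in the comparison concerned. Under these scalings, in that order, ANXA2 in H2052 became 0.28 and 0.32, S100A10 in H28 0.13 and 0.0472, resistant SERPINE2 -0.0020 and -0.0090, resistant S100A10 -0.014 and -0.0212, and washout against palbociclib PLAUR -0.0579 and -0.12 and SERPINB2 -0.11 and -0.16 (-0.0333 with a pseudocount of 50). Resistant minus sensitive controls became -0.0932 for PLAT and -0.0384 for PLAUR under upper-quartile scaling and -0.0075 for PLAT with a pseudocount of 50. PLAU was 0.0054 over the 9-day pairs, and over the 10-day pairs PLAUR was -0.0217 and ANXA2 -0.10. Leaving out pairs or lines gave ranges that cross 0. Over the sensitive pairs they were -0.77 to 0.0778 for PLAU, -0.0396 to 0.23 for PLAUR, -0.19 to 0.14 for ANXA2 and -0.21 to 0.50 for S100A10. In H28 they were -0.12 to 0.26 for SERPINB2 and -0.0605 to 0.0462 for S100A10, and in MSTO-211H -0.37 to 0.38 for PLAUR. In the resistant lines they were -0.0369 to 0.0012 for PLAUR, -0.0955 to 0.15 for SERPINE2 and -0.0105 to 0.0278 for S100A10. Between classes they were -0.022 to 0.155 for PLAUR and -0.0124 to 0.13 for ANXA2. For washout against palbociclib they were -0.16 to 0.46 for PLAT, -0.0844 to 0.17 for PLAUR, -0.0647 to 0.11 for SERPINB2 and -0.19 to 0.0060 for S100A10, and against DMSO -0.0851 to 0.37 for PLAUR and -0.31 to 0.16 for S100A10. For resistant minus sensitive controls they were -0.93 to 1.92 for PLAT, -4.76 to 0.40 for PLAU, -1.48 to 2.09 for PLAUR and -2.40 to 0.28 for SERPINE2.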
